A study of Mus musculus with 12 samples.

Results

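Csf3r, Csf2ra, Csf2rb, Csf2rb2, Il3ra, Il6ra, Il6st and Socs3 encode the receptor chains for the growth factors and cytokines G-CSF, GM-CSF, IL-3 and IL-6, and a protein that turns 2 of these receptors off. The 8 genes were chosen by symbol, with earlier results of these data known. Each symbol matched 1 of the 34745 genes measured, and all 8 passed the filter on low counts in every comparison. Total femoral marrow of male ICR mice, which are outbred, gave 12 RNA-seq libraries, 1 per mouse and 3 per group. All groups were dosed for 1 week. The normal group was given saline and no cyclophosphamide. The model, QJSB and leucogen groups were injected intraperitoneally with cyclophosphamide, an alkylating drug toxic to dividing cells, on days 5 to 7 (80 mg/kg daily). By mouth, the model group took saline, the QJSB group took Qi Jing Sheng Bai granule, a herbal preparation, at 3 g/kg per day, and the leucogen group took leucogen, a drug for low leucocyte counts, at 20 mg/kg per day. Marrow was therefore taken at the end of the days of injection, and the age of the mice was not given in the sources used here.

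Apart from Csf3r, a receptor of this kind pairs a chain that recognises its ligand with a chain that passes the signal on. None of the chains is itself a kinase. Csf3r binds G-CSF, the main driver of neutrophil production, as a homodimer. Csf2ra binds GM-CSF and signals through the common beta chain Csf2rb, while Il3ra binds IL-3 and in mice can pair with Csf2rb or with its close relative Csf2rb2. Il6ra binds IL-6 and signals through Il6st, also known as gp130. JAK kinases bound to these chains activate STAT factors, and Socs3, a target of STAT3, binds Csf3r and Il6st and shuts their signal off.

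Read counts were scaled to CPM, counts per 1000000 counts of the library, with TMM factors that assume most genes to be unchanged, and each pair of groups was tested on its own by edgeR's quasi-likelihood test. A gene was called where the Benjamini-Hochberg adjusted p over all genes tested was under 0.05 and the fold change over 1.5 in either direction. Totals ran from 11172547 to 18545198 counts per library. Mice of a group differed beyond counting error in all cases (chi-square over degrees of freedom between 10.2 and 99.6), and the 2 highest values both involved QJSB 1. Levels are of whole marrow, so a change in the share of cells that carry a receptor and a change of RNA per cell cannot be told apart.

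The beta chain genes need care, because they are near copies. In the deposited table Csf2rb lies on mouse chromosome 15 (GRCm38, chr15:78325990-78351000, plus strand) and Csf2rb2 beside it on the minus strand (chr15:78282517-78305603). By these coordinates their facing ends were 20387 bases apart. In GENCODE M21, also on GRCm38, their longest coding sequences of 2688 and 2634 bases were identical at 95.2% of the aligned bases. Of the 50-base stretches of the whole Csf2rb transcript with that coding sequence, untranslated ends included, 18.4% occurred unchanged in the matching Csf2rb2 transcript, as did 6.96% of its 100-base stretches. The coding stretches of 60 bases shown here were the least alike and a median pair, with the bases that differ in capitals.
Csf2rb, least alike (chr15:78338896-78338955, plus strand): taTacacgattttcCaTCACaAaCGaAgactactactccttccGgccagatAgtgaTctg
Csf2rb2, least alike (chr15:78294376-78294435, minus strand): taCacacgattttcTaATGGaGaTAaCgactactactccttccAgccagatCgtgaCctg
Csf2rb, median (chr15:78340704-78340763, plus strand): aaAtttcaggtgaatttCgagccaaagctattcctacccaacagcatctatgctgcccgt
Csf2rb2, median (chr15:78292546-78292605, minus strand): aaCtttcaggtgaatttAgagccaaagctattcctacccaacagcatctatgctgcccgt
The least alike pair differed at 13 of 60 bases and the median pair at 2, and in the most alike pair, which is not shown, 0 bases differed. A read from the shared stretches cannot be placed on 1 gene, and how the counting handled such reads is not given in the sources used here, so the 2 counts are uncertain where they could share reads. The other members lie on chromosomes 4 (Csf3r), 19 (Csf2ra), 14 (Il3ra), 3 (Il6ra), 13 (Il6st) and 11 (Socs3). The predicted genes Gm48860 and Gm42809 overlap Il3ra and Il6ra on the opposite strand, and the libraries kept strand but the strand setting of the counting is not given.

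Cyclophosphamide alone was tested in model against normal. The 7 members other than Csf3r were called higher in model, and their 3 model libraries all lay above their 3 normal libraries. The beta chains rose most, Csf2rb by 4.53-fold and Csf2rb2 by 4.61-fold, followed by Il3ra at 3.37-fold and Socs3 at 2.78-fold. Il6st rose by 2.26-fold, Il6ra by 2.16-fold and Csf2ra by 1.51-fold. The G-CSF receptor Csf3r had a lower mean in model and did not pass the adjusted threshold. Of the 14752 genes tested, 35.1% were called and 16.1% were called higher, beside 7 of 8 members. For 27.5% every model library lay above every normal library, again beside 7 of 8 members. The members were chosen with earlier results of these data known, so an excess over these shares gives no independent support. Of the genes called, 45.8% were higher in model, a share that became 56.3% with scaling by total counts. The plot of levels by library shows each value.

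**Figure D1:**
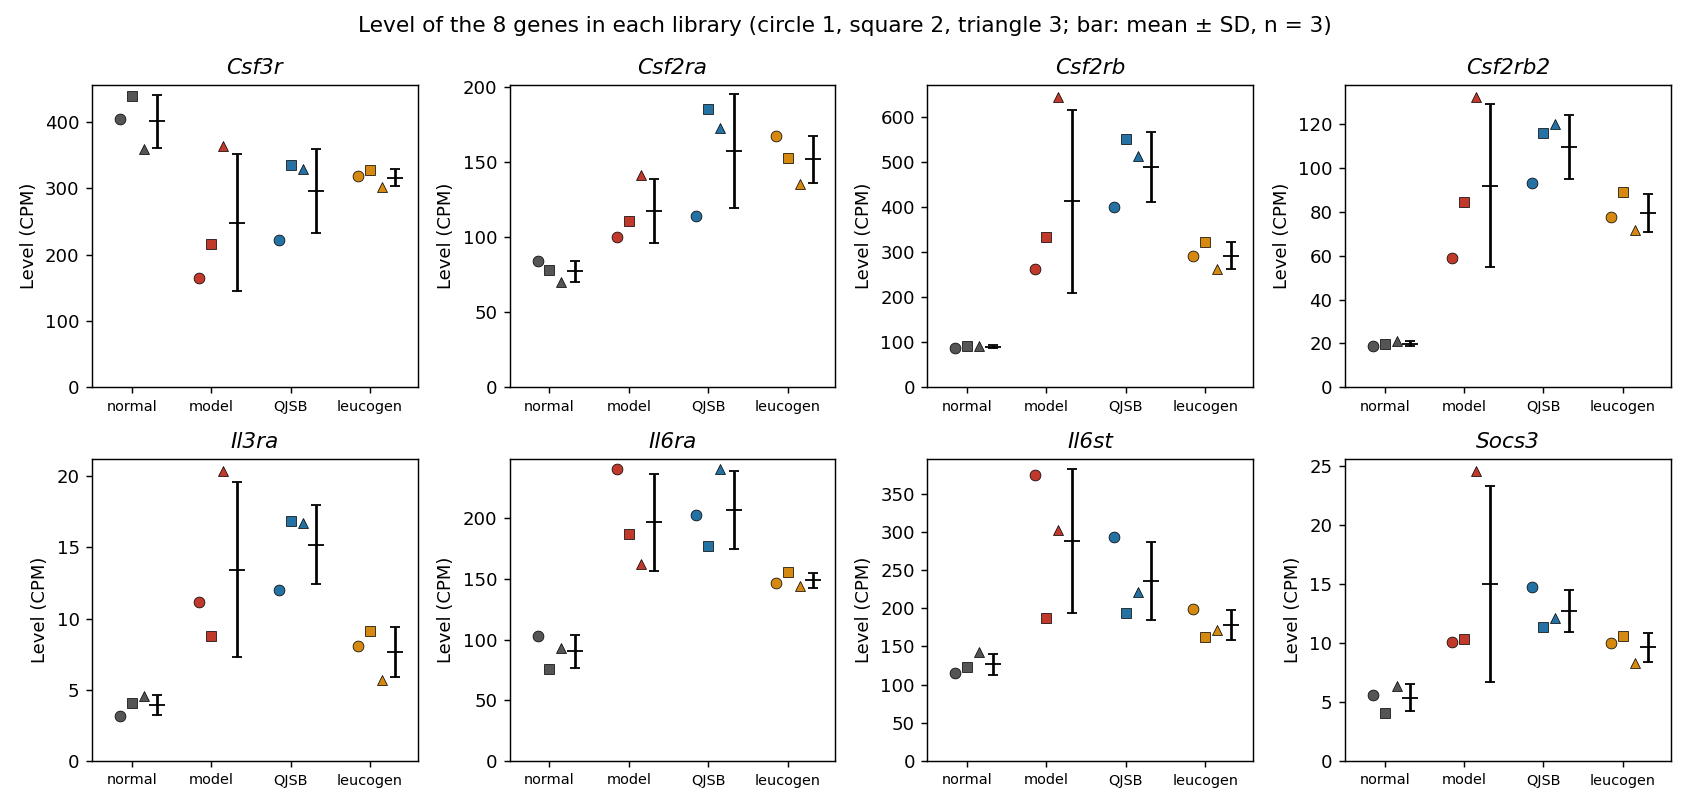
Level (CPM, linear axis from 0) of each of the 8 genes in each of the 12 libraries, by group, with circles, squares and triangles for replicates 1, 2 and 3 and the bar for the mean and SD of 3 libraries. The normal libraries lie below all others for every gene except Csf3r, for which the normal mean is the highest.

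Csf3r, the receptor for G-CSF, stood at 404, 439 and 359 CPM in the 3 normal libraries. It stood at 164, 217 and 364 CPM in the model libraries. Model 1 and 2 lay below every normal library, while model 3 lay within the normal range. The means were 401 ± 40.2 and 248 ± 104 CPM (SD, n = 3), with a log2 fold change -0.70, SE 0.27, adjusted p = 0.0681 from edgeR. DESeq2 (adjusted p = 0.0276) and edgeR with all 12 libraries in 1 fit (adjusted p = 0.0338) called it lower, as did edgeR without model 3 (log2 fold change -1.07, adjusted p = 0.00242).

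Csf2ra, the chain that binds GM-CSF, measured 83.9, 78.0 and 69.9 CPM in normal and 100.1, 111 and 141 CPM in model. The groups did not overlap, and the rise was the smallest of those called (log2 fold change 0.59, SE 0.16, adjusted p = 0.0156 by edgeR's quasi-likelihood test). It stood just over the 1.5-fold limit: the call was lost with DESeq2 size factors (log2 fold change 0.58), where genes needed 10 counts in each library (0.57), and without model 3 (0.45), normal 2 (adjusted p = 0.0575) or normal 3 (adjusted p = 0.0626). Csf2rb, the signal chain that GM-CSF and IL-3 receptors share, measured 86.7, 91.6 and 92.4 CPM in normal and 262, 333 and 644 CPM in model. The normal libraries were close together and model 3 held the highest level and model 1 the lowest (log2 fold change 2.18, SE 0.32, adjusted p = 0.00147 by edgeR). Its log2 fold change was at percentile 98.7 of all genes tested. Csf2rb2, the beta chain that in mice serves IL-3, went from 18.6, 19.9 and 20.9 CPM to 59.0, 84.6 and 132 CPM. It showed the same order of the model libraries and no overlap (log2 fold change 2.20, SE 0.27, adjusted p = 0.000512 by edgeR). Il3ra, the chain that binds IL-3, was the scarcest receptor chain, at 3.18, 4.09 and 4.57 CPM in normal and 11.1, 8.77 and 20.4 CPM in model. Every model library was above every normal library (log2 fold change 1.75, SE 0.33, adjusted p = 0.00343 by edgeR).

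Il6ra, the chain that binds IL-6, measured 103, 75.4 and 92.8 CPM in normal and 241, 187 and 162 CPM in model. Model 1 was the highest library here and model 3 the lowest, the opposite of their order for the beta chains (log2 fold change 1.11, SE 0.18, adjusted p = 0.00176 by edgeR). Il6st, the gp130 chain that IL-6 shares with related cytokines, went from 115, 122 and 142 CPM to 374, 187 and 303 CPM. The lowest model library, model 2, was above the highest normal library (log2 fold change 1.18, SE 0.23, adjusted p = 0.00456 by edgeR). Socs3, the inhibitor, was scarce, at 5.56, 4.09 and 6.34 CPM in normal and 10.1, 10.3 and 24.6 CPM in model. Model 3 stood well above model 1 and model 2, which were close to each other and above every normal library (log2 fold change 1.48, SE 0.38, adjusted p = 0.0145 by edgeR). Its adjusted p rose to 0.0503 without normal 1 and to 0.0581 without normal 2.

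**Figure D2:**
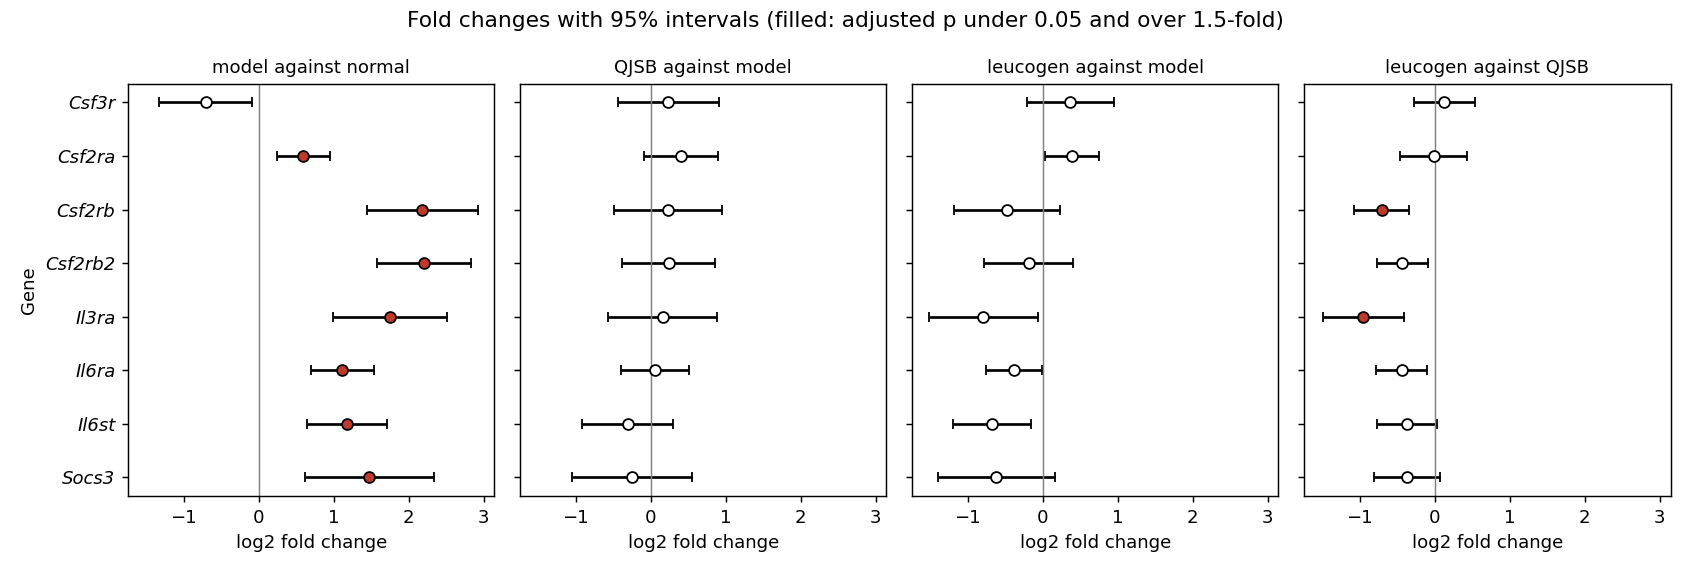
Log2 fold change of each gene (points) with its 95% interval from edgeR (bars) in 4 comparisons of 3 libraries against 3, filled where the gene was called. Filled points stand to the right of 0 for 7 genes in model against normal and to the left of 0 for Csf2rb and Il3ra in leucogen against QJSB, and there are none in the other 2 panels.

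The effect of the granule on top of cyclophosphamide was tested in QJSB against model. None of the 8 members was called, 0% of the 14486 genes tested were called by edgeR at an adjusted p under 0.05, and the groups did not overlap for 0 of 8 members beside 9.84% of all genes. An unadjusted p under 0.05 was reached by 0 members and by 4.99% of all genes. No label says that replicate numbers pair the libraries, and the pairing of QJSB with model was taken from correlations in these data alone. With that pairing as a block edgeR called 18 genes, and DESeq2, without the block, called 8 genes, with 0 members in either case. A block taken from the same data gives its calls no independent support.

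Csf3r stood at 223, 335 and 329 CPM in QJSB, within the range of the model libraries. Its log2 fold change was 0.24, with a 95% interval from -0.44 to 0.91. Csf2ra measured 114, 185 and 173 CPM and had the largest estimate, 0.40 (95% interval -0.10 to 0.90). QJSB 2 and QJSB 3 lay above every model library and QJSB 1 below the highest of them. Csf2rb measured 401, 553 and 514 CPM (log2 fold change 0.23, 95% interval -0.49 to 0.95) and Csf2rb2 93.1, 116 and 120.1 CPM (0.24, -0.38 to 0.86). Both lay inside the range of the model libraries. Il3ra measured 12, 16.8 and 16.7 CPM (0.16, 95% interval -0.57 to 0.89). Il6ra measured 203, 177 and 241 CPM and its estimate was the nearest to 0, at 0.05 (95% interval -0.40 to 0.51). Il6st at 293, 194 and 221 CPM and Socs3 at 14.7, 11.3 and 12.1 CPM had estimates below 0, -0.31 (-0.91 to 0.30) and -0.25 (-1.05 to 0.55). All 8 intervals held 0, and the adjusted p ran from 0.767 to 0.961 by edgeR. Except for Il6ra, each interval reached past 1.5-fold in at least 1 direction, so a change of that size would lie within the error. Leaving out any 1 of the 6 libraries, QJSB 1 included, also left 0 members called.

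The effect of leucogen on top of cyclophosphamide was tested in leucogen against model, which shares the model libraries with the comparison of the granule. None of the 8 members was called, beside 23.1% of the 14184 genes tested. At the same fold limit with an unadjusted p under 0.05, Il3ra and Il6st were lower in leucogen, 2 of 8 members beside 15.6% of all genes called lower by this rule. The groups did not overlap for Il6ra alone, 1 of 8 members beside 24.1% of all genes without overlap and lower in leucogen. Of all genes called, 50.1% were higher in leucogen, or 30.2% with scaling by total counts.

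Il6st, the gp130 chain, measured 199, 162 and 172 CPM in leucogen. Leucogen 1 lay above model 2 and the other leucogen libraries below every model library (log2 fold change -0.68, SE 0.23, adjusted p = 0.0575 by edgeR). It was called lower with DESeq2 (adjusted p = 0.0257) and without model 2 (log2 fold change -0.88, adjusted p = 0.00626 by edgeR). Il3ra measured 8.08, 9.14 and 5.70 CPM, and leucogen 2 lay above model 2 (log2 fold change -0.79, SE 0.32, adjusted p = 0.0957 by edgeR). Without model 2 the adjusted p of Il3ra was 0.0470. Il6ra measured 147, 156 and 144 CPM, all below the lowest model library, with a difference under 1.5-fold (log2 fold change -0.39, SE 0.16, adjusted p = 0.110 by edgeR).

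Csf2rb at 292, 323 and 263 CPM and Csf2rb2 at 77.9, 88.9 and 71.7 CPM overlapped with model, with log2 fold changes of -0.48 (95% interval -1.18 to 0.23) and -0.19 (-0.78 to 0.40). Both estimates turned to above 0 without model 3, at 0.01 and 0.18. Socs3 measured 9.98, 10.6 and 8.26 CPM (-0.62, 95% interval -1.39 to 0.16). Csf3r and Csf2ra had estimates above 0. Csf3r measured 318, 327 and 302 CPM (log2 fold change 0.37, SE 0.25, adjusted p = 0.306 by edgeR) and was called higher without model 3 (log2 fold change 0.77, adjusted p = 0.0180). Csf2ra measured 167, 153 and 136 CPM (log2 fold change 0.39, SE 0.16, adjusted p = 0.0951 by edgeR), and its lowest leucogen library lay below model 3.

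Set against each other, the drug groups differed for 2 members. Csf2rb was 1.63-fold lower in leucogen than in QJSB (log2 fold change -0.71, SE 0.16, adjusted p = 0.0140 by edgeR) and Il3ra 1.94-fold lower (log2 fold change -0.95, SE 0.24, adjusted p = 0.0192 by edgeR). Beside these 2 of 8 members, 24.6% of the 14266 genes tested were called and 12.9% called lower. The share of members called in either direction was therefore close to that of all genes, and the count is not particular to them. Every leucogen library lay below every QJSB library for Csf2rb, Csf2rb2, Il3ra, Il6ra and Socs3, 5 of 8 members beside 26.3% of all genes. Csf2rb2 (log2 fold change -0.43, adjusted p = 0.0590 by edgeR) and Il6ra (-0.44, adjusted p = 0.0558 by edgeR) did not pass. Csf3r (0.13, 95% interval -0.27 to 0.53) and Csf2ra (-0.02, -0.46 to 0.43) had the smallest differences. Both calls rested on 3 libraries a group. Without leucogen 1 or leucogen 3 both were lost, with adjusted p from 0.0594 to 0.0789, and without QJSB 2 or QJSB 3 that of Il3ra was lost (adjusted p = 0.0512 and 0.0581). Without QJSB 1, and under each setting that kept all libraries, both genes were called.

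Both drug groups also stood apart from normal. In QJSB against normal the 7 members other than Csf3r were called higher (background 37.9% called and 18% higher of 14817 genes), from Il6st at a log2 fold change of 0.89 to Csf2rb2 at 2.47. The groups did not overlap for 8 of 8 members, beside 58.4% of all genes, and Csf3r was lower in each QJSB library than in each normal library without passing (log2 fold change -0.44, adjusted p = 0.0729 by edgeR). In leucogen against normal 6 members were called higher (background 37.7% called and 17.8% higher of 14637 genes), from Il6ra at 0.74 to Csf2rb2 at 2.02. The groups did not overlap for 8 of 8 members, beside 61.8% of all genes. Il6st (0.51, adjusted p = 0.00430) and Csf3r (-0.33, adjusted p = 0.0131) passed the adjusted p in edgeR and stayed under 1.5-fold. Without normal 3 the change of Il6st reached that limit (log2 fold change 0.60). All 3 comparisons with normal used the same 3 normal libraries. Socs3 (log2 fold change 0.87, adjusted p = 0.00569 by edgeR) had an adjusted p of 0.0546 with all 12 libraries in 1 fit.

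The genes can be set against each other per length, in FPKM. In normal marrow Csf3r led at 71.7 ± 6.66 FPKM (SD, n = 3), before Csf2ra at 41.2 ± 3.27 and Csf2rb at 18.7 ± 0.833 FPKM. Il6ra (8.14 ± 1.23), Il6st (7.13 ± 0.868), Csf2rb2 (4.24 ± 0.296), Il3ra (2.80 ± 0.531) and Socs3 (1.60 ± 0.354 FPKM) were lower. In model the order at the top had changed. Csf2rb led at 91.0 ± 40.2 FPKM and Csf2ra followed at 67.4 ± 8.84 FPKM, with Csf3r at 47.3 ± 17.4 FPKM. In QJSB Csf2rb was at 101 ± 8.86, Csf2ra at 83.4 ± 14.6 and Csf3r at 52.6 ± 7.94 FPKM, and in leucogen Csf2ra led at 78.9 ± 10.8 before Csf2rb at 58.8 ± 5.91 and Csf3r at 54.8 ± 3.04 FPKM. The lengths the authors divided by are not given per gene, so these levels carry that uncertainty.

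Ordered by mean CPM, the groups fell into a common order for Csf2rb, Csf2rb2, Il3ra and Il6ra, which was QJSB, model, leucogen and normal. For Il6st and Socs3 model came before QJSB, then leucogen and normal. For these 6 genes the first and second group were not told apart by edgeR (adjusted p from 0.805 to 0.961), nor was the second group told apart from leucogen (adjusted p from 0.0957 to 0.615), although those libraries did not overlap for Il6ra and Socs3. The step from leucogen down to normal passed for 5 of them and stayed under 1.5-fold for Il6st. Csf2ra ran from QJSB (157 ± 38.1 CPM, SD, n = 3) over leucogen (152 ± 15.9 CPM) and model (118 ± 21.4 CPM) to normal (77.3 ± 7.02 CPM), and of these steps the one from model to normal was called. Csf3r ran the other way, from normal over leucogen (316 ± 12.6 CPM) and QJSB (296 ± 63.4 CPM) to model, and 0 of its steps were called.

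A ratio of 2 genes within a library does not depend on how the library is scaled, and 4 such ratios were compared in 3 comparisons. With 3 libraries against 3 the smallest p of the exact two-sided permutation test is 0.1, so 0 of the 12 tests could reach 0.05. The log2 ratio of Csf2rb2 to Csf2rb counts was -2.22, -2.20 and -2.14 in normal, -2.15, -1.98 and -2.28 in model and -2.11, -2.25 and -2.10 in QJSB. These groups overlapped and the 2 beta chains kept nearly the same proportion while both rose (model minus normal 0.05, exact permutation p = 0.8). In leucogen it was -1.90, -1.86 and -1.88, above every other library of the study (leucogen minus model 0.26, exact permutation p = 0.1, 0.24 after Benjamini-Hochberg adjustment over the 12 ratios). Reads that could belong to either gene enter this ratio.

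The log2 ratio of Csf2rb to Csf2ra, the chains of the GM-CSF receptor, was 0.05, 0.23 and 0.40 in normal and 1.39, 1.59 and 2.19 in model. The groups did not overlap and the ratio was 2.81-fold higher in model (exact permutation p = 0.1, 0.24 after Benjamini-Hochberg adjustment over the 12 ratios). It was 1.82, 1.58 and 1.57 in QJSB, within the range of model, and 0.80, 1.08 and 0.96 in leucogen, between normal and model without overlap with either. Leucogen minus model was -0.77 (exact permutation p = 0.1, 0.24 after Benjamini-Hochberg adjustment over the 12 ratios). The log2 ratio of Il6st to Il6ra, the chains of the IL-6 receptor, ran from -0.13 in QJSB 3 to 0.90 in model 3, and every group overlapped with every other. The log2 ratio of Socs3 to Csf3r, the brake against the receptor it binds, was -6.17, -6.73 and -5.81 in normal and -4.02, -4.39 and -3.89 in model. That is 4.41-fold higher in model without overlap (exact permutation p = 0.1, 0.24 after Benjamini-Hochberg adjustment over the 12 ratios). It was -3.92, -4.89 and -4.76 in QJSB, where QJSB 1 lay within the range of model and the others below it. In leucogen it was -4.99, -4.94 and -5.18, below model without overlap (leucogen minus model -0.94, exact permutation p = 0.1, 0.24 after Benjamini-Hochberg adjustment over the 12 ratios). The plot of ratios shows each library.

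**Figure D3:**
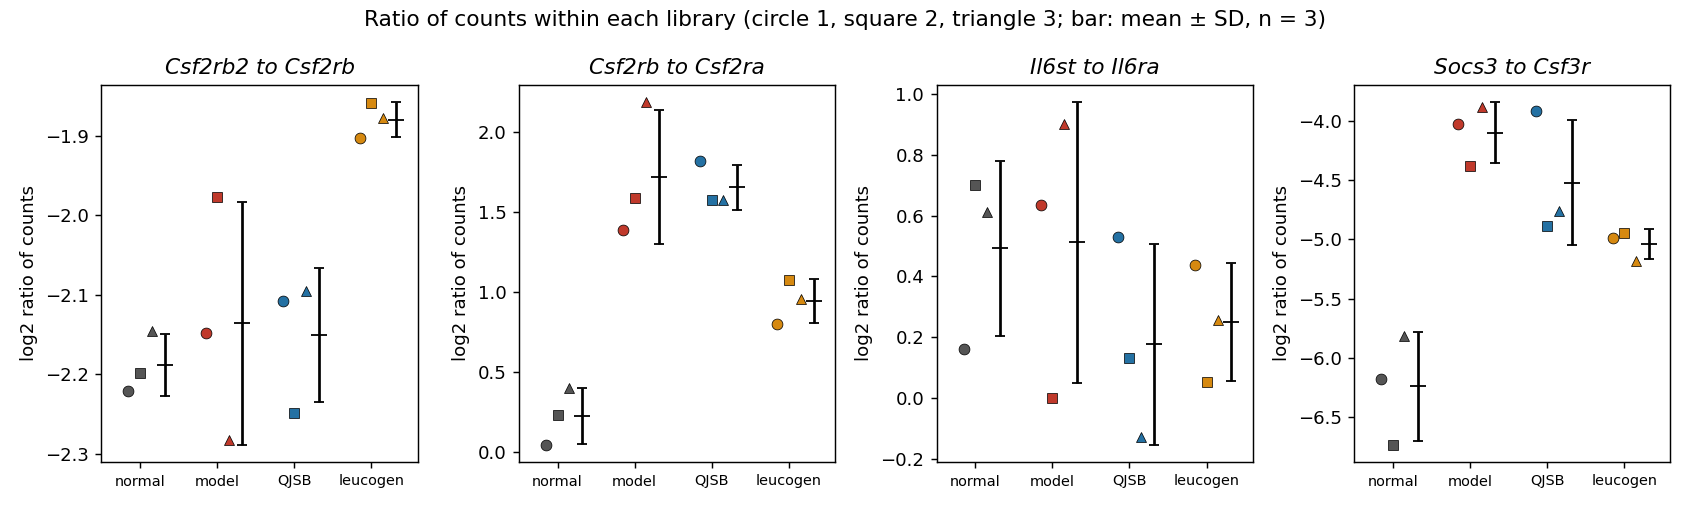
Log2 ratio of the counts of 2 genes within each library, by group, with circles, squares and triangles for replicates 1, 2 and 3 and the bar for the mean and SD of 3 libraries. The axes do not start at 0 and differ between panels: the leucogen libraries stand above all others for Csf2rb2 to Csf2rb, and the normal libraries below all others for Csf2rb to Csf2ra and for Socs3 to Csf3r.

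For 7 of the 8 members the libraries varied most among the model mice, and Csf2ra varied most in QJSB (coefficient of variation 24.2%, beside 18.3% in model). The coefficient of variation of CPM over 3 libraries had a median over the 8 genes of 41.1% in model, 17.1% in QJSB, 10.7% in leucogen and 10.5% in normal. Model 3 was the highest model library for 6 genes (Csf3r, Csf2ra, Csf2rb, Csf2rb2, Il3ra and Socs3), and model 1 for Il6ra and Il6st. Summed over 8 promyelocyte genes, such as the granule enzymes of early granulocytes, the level was 7465, 7487 and 10475 CPM in model 1, 2 and 3, with model 3 highest as for those 6 genes. Model 3 was also highest for the sum of 12 proliferation genes, at 3926, 4673 and 5232 CPM. The sum of 10 monocyte and macrophage genes was 4649, 3609 and 2781 CPM, the order of Il6ra. This order was not particular to that list. It also held for the stem and progenitor sum and for the B lineage, erythroid, eosinophil and T and NK cell sums. The stromal and endothelial sum, at 564, 233 and 220 CPM, had this order as well. The sum of 9 stem and progenitor genes was 444, 269 and 267 CPM, and that of 13 genes of late neutrophils 8127, 25599.6 and 16127 CPM. The part of these cells in the levels of the receptors was not tested.

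Marker sums also moved between the groups. The promyelocyte sum was 1295, 1112 and 1027 CPM in normal, 9737, 9794 and 9221 CPM in QJSB and 4914, 5733 and 4764 CPM in leucogen, so normal was lowest, leucogen in between and QJSB within the range of model, without overlap of leucogen with any group. Of the 8 promyelocyte genes, 8 were called higher in model than in normal, and in leucogen against model 6 were called lower and 1 higher. Over all genes, 2368 were called higher and 2803 lower of 14752 in model against normal. In leucogen against model these counts were 1641 and 1635 of 14184, and in leucogen against normal 2610 and 2904 of 14637. The late neutrophil sum was 25655, 25564 and 22795 CPM in normal, 9625, 44695 and 41194 CPM in QJSB and 55167, 65058 and 70129 CPM in leucogen, with 5 of its 13 genes called lower in model than in normal and 9 called higher in leucogen than in model. The monocyte and macrophage sum was 1992, 2043 and 1833 CPM in normal, below every other library, but the genes of the list did not all move the same way. In model against normal 4 of its 10 genes were called higher and 0 lower, while in leucogen against normal 3 were called higher and 4 lower, with a median log2 fold change of -0.24, and in leucogen against model 0 higher and 5 lower. The stem and progenitor sum was 163, 158 and 184 CPM in normal and 192, 198 and 181 CPM in leucogen, below every model and QJSB library. Genes of the B lineage summed to between 2035 and 2198 CPM in normal and at most 268 CPM elsewhere, with Vpreb3 at 0 counts in QJSB and leucogen, and erythroid genes to between 11817 and 13182 CPM in normal and at most 749.9 CPM elsewhere. Of the erythroid list, Ahsp was not in the table, and of the 14 late neutrophil genes listed 13 were matched to it. The part of this shift in the rise of the 7 members was not tested.

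**Figure D4:**
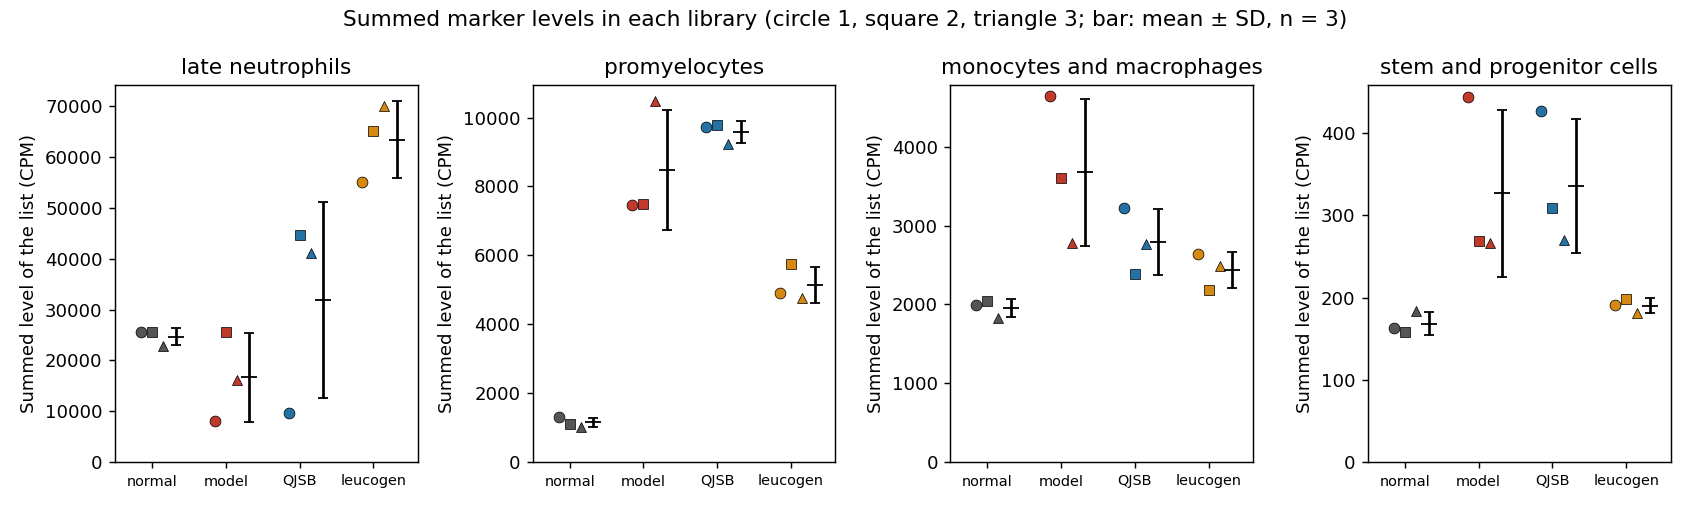
Summed level (CPM, linear axis from 0) of 4 marker lists in each library, by group, with circles, squares and triangles for replicates 1, 2 and 3 and the bar for the mean and SD of 3 libraries. Promyelocyte genes are lowest in normal and intermediate in leucogen, late neutrophil genes are highest in leucogen, and QJSB 1 stands far below QJSB 2 and QJSB 3 for late neutrophil genes.

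The rest of the pathway was read from 6 lists of ligands, receptors, kinases, brakes, adaptors and targets, each given by its calls and its median log2 fold change beside a median of 0.02 over all genes in model against normal, where the 8 members had a median of 1.33. Of all 14752 genes tested there, 2368 were called higher and 2803 lower. Other receptors were 7 higher and 4 lower of 15 tested (median 0.62). The largest falls were Epor, the erythropoietin receptor, from 47.6 ± 6.14 to 2.02 ± 1.82 CPM (SD, n = 3, adjusted p = 0.000830 by edgeR), and Il5ra, the receptor chain of eosinophils that also pairs with Csf2rb, from 15.6 ± 1.94 to 0.995 ± 0.588 CPM (adjusted p = 0.000169 by edgeR). Il5ra therefore fell while Csf2rb, its signal chain, rose. The eosinophil marker sum, which counts Il5ra among its 9 genes, went from 1959.8, 1584 and 1591 CPM to 195, 125 and 77.4 CPM over the same libraries.

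JAK kinases and STAT factors were 3 higher and 2 lower of 11 tested (median 0.05). Jak3 rose from 27.8 ± 2.15 to 114 ± 37.1 CPM (log2 fold change 2.02, adjusted p = 0.000216 by edgeR), and Stat4 fell (log2 fold change -0.93, adjusted p = 0.00742 by edgeR). SOCS proteins and other brakes, Socs3 left out, were 0 higher and 4 lower of 17 tested (median -0.24), beside 16.1% of all genes called higher. The largest falls among the brakes were Dusp1 (log2 fold change -2.49, adjusted p = 0.00834) and Dusp6 (-2.11, adjusted p = 1.51e-05 by edgeR), phosphatases that act on MAP kinases. Adaptors and downstream kinases were 2 higher and 1 lower of 15 tested (median 0.13), with the adaptor Gab2 (1.28, adjusted p = 0.000400) and the kinase Fes (0.71, adjusted p = 0.00354 by edgeR) higher. Targets of STAT3 and STAT5 were 4 higher and 2 lower of 16 tested (median 0.18). The largest changes were the falls of Bcl2l1, a survival gene that red cell precursors express strongly (log2 fold change -2.42, adjusted p = 1.14e-05), and of Pim2 (-1.78, adjusted p = 0.000269 by edgeR).

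In QJSB against model 0 genes of these lists were called, as of all genes. Of all genes, 1641 were called higher and 1635 lower of 14184 tested in leucogen against model. For leucogen against QJSB these counts were 1675 and 1836 of 14266. In leucogen against model the other receptors were 0 higher and 5 lower of 15 tested, led by Flt3, a receptor of early progenitors, from 114 ± 51.3 in model to 30.7 ± 1.77 CPM in leucogen (log2 fold change -1.87, adjusted p = 0.00501), and Lifr, a partner chain of Il6st (-1.34, adjusted p = 0.0156 by edgeR). The list had a median of -0.67, the 8 members -0.43 and all genes -0.05. Kinases and STAT factors were 1 higher and 1 lower of 11 tested, with Stat4 higher (0.94, adjusted p = 0.0118) and Stat5a lower (-0.73, adjusted p = 0.0215 by edgeR). Brakes were 2 higher and 1 lower of 17 tested, with Cblb lower (-1.16, adjusted p = 0.00379) and Pias3 higher (0.72, adjusted p = 0.0122 by edgeR). Targets were 1 higher and 3 lower of 16 tested, with Fos (-2.13, adjusted p = 0.00177) and Ccnd2 (-0.97, adjusted p = 0.0327 by edgeR) lower. In leucogen against QJSB the other receptors were 0 higher and 4 lower of 15 tested, with Flt3 (-1.91, adjusted p = 0.00184) and Csf1r, the receptor of macrophages (-0.90, adjusted p = 0.0108 by edgeR), showing the largest differences. Kinases and STAT factors were 1 higher and 2 lower of 11 tested, with Stat5a lower (-0.80, adjusted p = 0.0127) and Stat4 higher (0.78, adjusted p = 0.0236 by edgeR). Brakes were 3 higher and 2 lower of 17 tested, and the largest changes were the falls of Dusp1 (-2.78, adjusted p = 0.0360) and Cblb (-1.11, adjusted p = 0.00285 by edgeR). Dusp1 was widely scattered in QJSB, at 37.3 ± 32.1 CPM beside 5.27 ± 2.23 CPM in leucogen (SD, n = 3). Adaptors were 0 higher and 2 lower of 15 tested, the kinase Akt1 (-0.75, adjusted p = 0.0132) and Gab2 (-0.73, adjusted p = 0.00596 by edgeR). Targets were 0 higher and 3 lower of 16 tested, led by Fos (-2.82, adjusted p = 0.00285) and Cebpb (-1.48, adjusted p = 0.0120 by edgeR). Of the ligands, 0 were called in leucogen against model or in leucogen against QJSB.

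Of the 14 ligands, Csf3, Csf2, Il3 and Il5 were near absent, and others were scarce, such as Lif with 2 counts in each normal library. The whole list summed to between 53.6 and 58.1 CPM in normal. Csf3 (G-CSF) and Csf2 (GM-CSF) had 0 counts in 11 libraries and 1 count each in QJSB 2, Il5 had at most 2 counts in any library, and Il3 had 0 counts in all 12, which for the 3 model libraries together allows up to 0.0658 CPM by a floor of 3 counts and covers counting error only. Il6 had 16, 24 and 19 counts in normal and 1, 4 and 5 in model (log2 fold change -2.68, adjusted p = 0.00449 by edgeR). It had 5, 7 and 3 counts in QJSB and 6, 2 and 2 in leucogen. In serum, the study reported that G-CSF and IL-6 protein rose after cyclophosphamide and were lower with QJSB. After cyclophosphamide, Il6 RNA in marrow thus went the other way from IL-6 protein in serum, while Csf3 RNA was too scarce to compare. How marrow RNA of a ligand relates to its level in blood was not tested. Clcf1, a cytokine that also signals through Il6st, was the other large fall, from 11.6 ± 4.55 CPM in normal to 1.97 ± 0.700 CPM in model (log2 fold change -2.57, adjusted p = 0.00139 by edgeR). Of the 14, 7 passed the filter on low counts in model against normal, and 0 were called higher and 3 lower.

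The genes whose pattern was most like each member were sought among 10094 named genes with a mean of at least 5 CPM, by the root mean square difference of log2 CPM, each centred on its own mean over the 12 libraries. The 12 libraries share their groups, so a gene that differs by treatment will resemble others that do. Csf2rb and Csf2rb2 were each other's nearest gene, at 0.142 log2 units over a range of 2.89 for Csf2rb, and were followed by App (0.172) for Csf2rb and by Alas1 (0.174) for Csf2rb2. Csf2ra was nearest to Dnmbp (0.105) and to the kinase Fes (0.115), which is among the adaptors listed. Csf3r was nearest to Med13l (0.187) and Cd37 (0.191), and Il3ra to B4galnt1 (0.177) and Adssl1 (0.211). Il6ra was nearest to Slc36a4 (0.141) and Dlg4 (0.160), and Il6st to Lrrc8b (0.129) and Klf4 (0.163). Socs3 was nearest to Prrc1 (0.212) and Myd88 (0.223).

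Since STAT factors act downstream of these receptors, the promoters of the members were searched for the letters TTCNNNGAA, a core that STAT factors can bind. RefSeq promoters of 300 bases (GRCm38.p6, from 250 before to 50 after the start) were at hand for 7 members. The letters, which read the same on both strands, occurred in 2 of the 7, Socs3 and Csf2rb2, and in 8.30% of 32851 promoters. The stretches of 60 bases around both matches are shown with the match in capitals.
Socs3 (chr11:117969487-117969546, minus strand): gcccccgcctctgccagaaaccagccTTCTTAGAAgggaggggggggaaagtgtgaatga
Csf2rb2 (chr15:78305722-78305781, minus strand): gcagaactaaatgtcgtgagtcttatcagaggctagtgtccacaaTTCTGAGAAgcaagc
The match began 154 bases before the start in Socs3 and 15 bases before it in Csf2rb2. The start that RefSeq gives for Socs3 lies inside the span of Socs3 in the deposited table. The ETS letters GAGGAAGT, on either strand, occurred in Csf2rb2, 1 of 7 members beside 3.20% of promoters, and the C/EBP letters TTGCNNAA, on either strand, in Il3ra, 1 of 7 beside 10.8%. A match is a description of the sequence, and binding was not measured.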

How the data were processed

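Marrow RNA of 12 mice was depleted of ribosomal RNA and sequenced strand-specifically. The authors filtered reads by Seqtk and aligned with Hisat2 to GRCm38 (mm10 in the submitters' processing notes), and the program and strand setting of the counting are not given in the sources used here. The deposited table holds raw read counts per gene, which the authors left without normalization, and FPKM, for which the authors divided by transcript length and total fragments. Column headings other than Model are not group names of the labels. Blank, Positive and Stilbene were taken by meaning and elimination for normal, leucogen and QJSB. Mean normalized counts listed by the study fitted this reading within 1% for 300 of 300 genes in each of 3 comparisons, against at most 10 for any other pairing.

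Counts were tested with edgeR 4.0.16 in R 4.3.3 (TMM, filterByExpr, robust quasi-likelihood fit, 3 libraries against 3, no covariates). The procedure was first run on simulated data with the same dispersion for every gene. That setting does not match the spread of these libraries, so it gives no measure of power for them. CPM used TMM factors over 12 libraries, so their ratio can differ slightly from a fitted fold change. P-values measure the spread between single mice. Ratios used counts plus 0.5, and similarity used log2 CPM with a prior count of 2. The members and lists were chosen with earlier results of these data known. Pathway genes are named as at most the 2 largest called changes per list and comparison, and similar genes as the nearest 2, without predicted Gm or Rik genes. The adaptor list in leucogen against model and the pathway lists in QJSB and leucogen against normal are not reported here. Replicate numbers were taken to pair libraries where deviations from group means correlated above 0.1 for every number over 15310 genes. This held for QJSB and model (0.426, 0.122 and 0.107), from the data alone, and no label says that a number marks a shared batch. For leucogen and QJSB the correlations were also all positive (0.181, 0.134 and 0.0779). Libraries of unlike number were not compared. The deviations within a group are not independent, so an outlying pair of libraries can raise all the correlations. Alternatives were DESeq2 1.42.0 without a filter, its size factors in edgeR, total counts, no filter, a count of 10 in each library, 12 libraries in 1 fit, the replicate block, limma 3.58.1 on log2(FPKM + 0.1) where the mean reached 0.1 FPKM, and leaving out each library. Promoters came from RefSeq, and coding sequences from GENCODE M21, whose coordinates matched the table for 4 of 8 members.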

Additional observations from a re-analysis of the deposited data

Results flagged for a closer look

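In leucogen against QJSB 2 of 8 members were called, a share close to the 24.6% of all genes tested. Neither of the 2 was called in QJSB or in leucogen against model in the main fit. Csf2rb had a log2 fold change of -0.708 in leucogen against QJSB (adjusted p = 0.0140 by edgeR), lower in 3 of 3 leucogen libraries than in any QJSB library. Against model it was -0.48 in leucogen and 0.23 in QJSB. Il3ra had a log2 fold change of -0.953 in leucogen against QJSB (adjusted p = 0.0192 by edgeR), also lower in 3 of 3 leucogen libraries. Against model it was -0.79 in leucogen and 0.16 in QJSB. For each gene 2 leave-one-out fits or more lost the call, as given beside the results.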

How the results depend on the processing

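With 3 mice a group, 0 members were called in QJSB against model under each alternative, and 7 in QJSB against normal under each. In model against normal 5 to 8 members were called and in leucogen against normal 5 to 7. In leucogen against model, where 0 members were called, 1 was called (Il6st) with DESeq2, total counts, no filter, 12 libraries in 1 fit and the replicate block, and 0 to 2 with a library left out (Il3ra and Il6st without model 2, Csf3r without model 3). In leucogen against QJSB leaving out a library gave 0 to 2 members. Estimates near 0 changed sign. Il6ra in QJSB against model was -0.038 with total counts and -0.024 on FPKM, and Csf2ra in leucogen against QJSB was 0.00128 with DESeq2 size factors and 0.0094 with the replicate block. With a library left out, log2 fold changes in QJSB against model ran from -0.013 to 0.69 for Csf2rb (sign turned without model 1), -0.064 to 0.58 for Il3ra (model 2), -0.070 to 0.23 for Il6ra (model 3 or QJSB 3) and -0.47 to 0.29 for Socs3 (model 3). In leucogen against model they ran from -0.71 to 0.011 for Csf2rb and -0.42 to 0.18 for Csf2rb2 (both model 3), and in leucogen against QJSB from -0.033 to 0.23 for Csf3r (QJSB 1) and -0.20 to 0.099 for Csf2ra (QJSB 2, QJSB 3 or leucogen 3). Log2 ratios ran from -0.027 to 0.13 (Csf2rb2 to Csf2rb, model minus normal, turned without model 2), -0.088 to 0.064 (the same, QJSB minus model, without model 2 or QJSB 2), -0.23 to 0.17 (Csf2rb to Csf2ra, QJSB minus model, without model 3) and -0.17 to 0.28 (Il6st to Il6ra, model minus normal, without model 1, model 3 or normal 1). The causes were not tested. Scaling by total counts moved the all-gene median (log2) from 0.02 to 0.14 in model against normal and from -0.05 to -0.22 in leucogen against model, and turned no direction of a member there. The replicate block also lost Csf2ra in model against normal (log2 fold change 0.58) and, Il6st aside, changed no other call of a member. Outside QJSB against model the numbers were not taken to pair the libraries, as at least 1 correlation in each comparison was under 0.1. Over all genes, QJSB against model had 0 calls, 8 with DESeq2, 18 with the replicate block and 3 without QJSB 1. Leucogen against model had 3276, with 1724 without leucogen 1 and 1239 without leucogen 3, and leucogen against QJSB had 3511, with 2157 and 1544. Il3ra and Socs3 had the fewest counts of the members.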
